A study of Rattus norvegicus with 28 samples.

Results

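The difference between WT and Med14 S983A cells in the gene response to 16 h of exendin-4 (Ex-4) was measured in the rat insulinoma line INS-1, which is used as a model of the insulin-secreting beta cell. It was taken from 8 of the 28 RNA-seq libraries of the study, 2 in each of 4 groups. WT cells were untreated (WT CON) or exposed to 10 nM Ex-4 for 16 h, and Med14 S983A cells were untreated (S983A CON) or exposed in the same way. The value for a gene is its log2(TPM + 1) response in S983A minus its log2(TPM + 1) response in WT, called below the difference of the response, where TPM is the share of a transcript among all transcripts of a library, corrected for length. Of 17455 gene symbols in the table, 10275 averaged 1 TPM or more across the 28 libraries and were tested. The other 20 libraries, from 1 or 8 h of Ex-4 and from 1, 8 or 16 h of 10 µM forskolin (FSK), entered the fit for the spread between replicates, and those of 8 h of Ex-4 and 16 h of FSK are set beside the 16 h values near the end. Both genotypes were placed in medium without serum before Ex-4 was added. The S983A allele, an alanine for a serine numbered as in the mouse protein, was made by CRISPR knock-in with silent changes beside the codon. Its lines were grown from individual sorted cells after puromycin selection, and the labels do not say which line gave the libraries. A genotype difference in these libraries is therefore also a difference between cell lines, and the 2 cannot be told apart. The methods speak of biological replicates and of independent knock-in lines, but the labels tie no library to a culture or a line, so what the spread between the 2 libraries of a group covers, and with it the p-values, is not known.

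Ex-4 is an agonist of the GLP-1 receptor, which raises cAMP and activates protein kinase A (PKA). PKA phosphorylates CREB, which induces a first wave of genes within the hour, and longer exposure changes a larger set of metabolic and secretory genes. Med14 is the backbone subunit of Mediator, the complex that connects transcription factors with RNA polymerase II, and the serine at the changed position lies in a PKA site. Sterol synthesis is driven by SREBP2, which is released when sterols in the membrane of the endoplasmic reticulum (ER) are low. ATF4, translated when eIF2 is phosphorylated by sensors of amino acid shortage or ER stress, drives genes of serine and asparagine synthesis, amino acid import and tRNA charging.

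The 8 libraries held 42551133 to 56171844 fragments, and the number of genes at 1 TPM or more was 10117 to 10249. Spike-in RNA of the ERCC set made up 0.735% to 0.955% of fragments. It was added by mass of total RNA, so that it says nothing of the amount of RNA in a cell. Within S983A at 16 h its share was 0.955% in replicate 1 and 0.819% in replicate 2. Within WT CON it was 0.864% in replicate 1 and 0.953% in replicate 2. Med14 transcript was at 21.5 and 20.3 TPM in WT CON, 17.2 and 19.5 TPM in WT at 16 h, 19.6 and 20.3 TPM in S983A CON and 21.1 and 19.8 TPM in S983A at 16 h, with a difference of the response of 0.21 (SE 0.09, limma adjusted p 0.0779), and a changed codon cannot be checked by the level. Of 12 markers of the beta cell 11 were tested, the insulin genes, Pdx1 and the GLP-1 receptor gene Glp1r among them, and Mafa had no line. Glp1r was at 95.4 and 89.8 TPM in WT CON and 88.9 and 89.1 TPM in S983A CON, and Slc2a2, the glucose transporter GLUT2, was at 534 and 499.8 TPM in WT CON and 63.6 and 61.7 TPM in S983A CON. Of the acinar markers 3 of 17 were tested, of the alpha, delta and PP cell markers 1 of 11 (Gcg), and of the stromal, endothelial and immune markers 2 of 16, the others being under a mean of 1 TPM or without a line. Glucagon was at 165 and 169 TPM in WT CON and 6.09 and 6.55 TPM in S983A CON and rose in both, with a difference of the response of 0.12 (SE 0.10, limma adjusted p 0.312). The part of this line difference in the results was not tested. In bulk RNA, fewer cells with a transcript and less of it per cell cannot be told apart.

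At 16 h, 558 genes had a higher response in S983A (5.43% of genes tested) and 186 a lower one (1.81%), by limma at a Benjamini-Hochberg adjusted p under 0.05 and more than 1.5-fold. The median difference over all genes was 0.09 in TPM, and the balance turned with the scaling. After each library was centred on its median gene, 330 genes were higher (3.21%) and 378 lower (3.68%), with a median of −0.04. When libraries were scaled on the ERCC RNA, as for the study's own calls, 138 were higher (1.34%) and 1703 lower (16.6%), with a median of −0.33. That last count moved most with the libraries of S983A at 16 h and of WT CON. It was 1025 without replicate 1 and 2801 without replicate 2 of S983A at 16 h. It was 2412 without replicate 1 and 1210 without replicate 2 of WT CON. All 186 genes that were lower in TPM were lower under all 3 scalings, whereas of the higher genes 135 were (1.31%). In each fit that left out 1 of the 8 libraries, 104 of these 135 genes and 124 of the 186 kept the call under all 3 scalings. A gene is described below as holding under all scalings where it was called on TPM, after median-centring and with ERCC. Both other scalings moved the median difference down, so that a gene lower in TPM could hardly lose its call. Holding under all scalings therefore sorts the higher genes and is nearly given in advance for the lower ones.

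**Figure D1:**
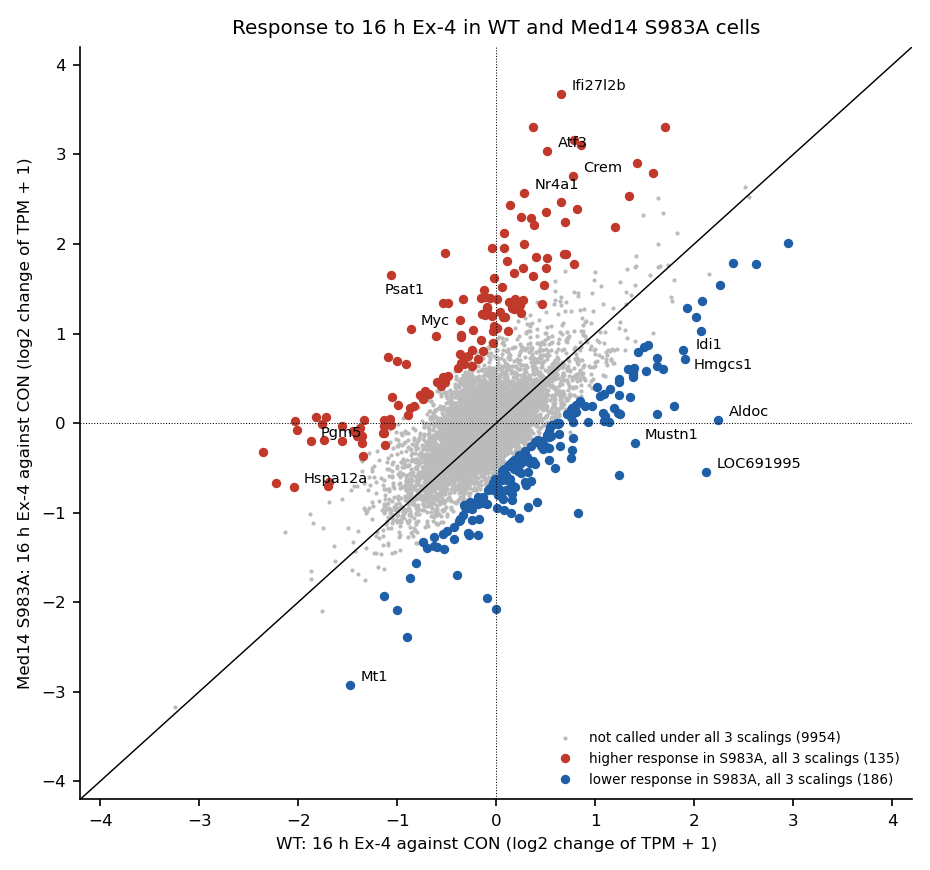
Log2(TPM + 1) response to 16 h of Ex-4 in WT (horizontal axis) and in Med14 S983A (vertical axis) for the 10275 genes tested, each point a gene and each value a difference of 2-replicate means. Genes on the diagonal responded alike, and the 135 higher and 186 lower genes called under all 3 scalings lie above and below it.

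Sorting these genes by what each genotype did showed several patterns. Of the 186 genes with a lower response, 66 rose in WT (363 of all genes did, 3.53%), and of those 47 passed in neither direction in S983A, 18 rose there too and 1 fell. Another 64 fell in S983A alone (735 of all genes fell there, 7.15%), 11 fell in both and 45 passed in neither. Of the 135 higher genes, 71 rose in S983A alone (486 of all genes rose there, 4.73%), 15 rose in both, 35 fell in WT alone (851 of all genes did, 8.28%), 6 fell in WT and rose in S983A, 4 fell in both and 4 passed in neither. The starting levels also differed. Of the 66 genes that rose in WT, 24 were already higher in S983A CON than in WT CON (852 of all genes were, 8.29%), 10 were lower (1145 of all genes, 11.1%) and 32 were neither. Of the 35 that fell in WT alone, 28 were already lower in S983A CON. The difference of the response is made from these same CON and 16 h values. Selecting genes by a low difference favours those high in S983A CON, and by a high one those low there. The counts of this paragraph therefore describe the called genes and are no separate result about responses or starting levels.

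Genes of cholesterol synthesis gave the most frequent lower response among the pathways described here. Of the 21 genes, 11 had a lower response in S983A (52.4%, beside 1.81% of all genes) and 0 a higher one. All 11 held under all scalings, which is nearly given in advance for a lower gene. Without 1 library the lower count was 10 to 12. Of the 2 members with a difference above 0, 1 passed an unadjusted p of 0.05, and edgeR and DESeq2 each called 0. The median difference over the list was −0.61 in TPM, −0.74 when median-centred and −1.05 with ERCC, beside 0.09, −0.04 and −0.33 over all genes. Of the 21 genes, 19 rose in WT and 14 in S983A, beside 3.53% and 4.73% of all genes. The median response was 1.2996 in WT and 0.71 in S983A.

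Hmgcs1 (NM_017268, rn6 chromosome 2, 52427579 to 52445082), which makes the HMG-CoA that enters the pathway, was at 80.8 and 78.6 TPM in WT CON, 298 and 297 TPM in WT at 16 h of Ex-4, 90.1 and 79.9 TPM in S983A CON and 155 and 145 TPM in S983A at 16 h. The CON groups overlapped, and at 16 h both S983A libraries were well below both WT libraries. Its difference of the response was −1.07 (SE 0.08, limma adjusted p 6.21e-11). Idi1 (NM_053539, rn6 chromosome 17, 57976266 to 57984036), the isomerase that makes dimethylallyl diphosphate, was at 54.9 and 53.3 TPM in WT CON, 212 and 200.1 TPM in WT at 16 h of Ex-4, 74.5 and 64.2 TPM in S983A CON and 119 and 109 TPM in S983A at 16 h, with a difference of −1.19 (SE 0.08, limma adjusted p 1.46e-11). Fdps, which builds farnesyl diphosphate, started higher in S983A (296 and 303 TPM in WT CON against 492 and 488 TPM in S983A CON) and reached 1252 and 1266 TPM in WT and 982 and 1015 TPM in S983A. S983A minus WT was 0.71 at CON and −0.33 at 16 h, under 1.5-fold, and the difference of the response was −1.04 (SE 0.04, limma adjusted p 3.65e-15). The other called genes were Hsd17b7 (−0.90), the squalene synthase Fdft1 (−0.86), the squalene epoxidase Sqle (−0.81), Msmo1 (−0.72), mevalonate kinase Mvk (−0.69), Acat2 (−0.67), the lanosterol demethylase Cyp51 (−0.64) and Tm7sf2 (−0.61; −0.55 without replicate 2 of WT CON). At the end of the pathway Dhcr7 (−0.32) was under 1.5-fold in TPM.

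Of 17 genes of cholesterol uptake and sensing, 2 were lower and 2 higher, beside 1.81% and 5.43% of all genes. The lower ones held under all scalings, which is nearly given in advance for a lower gene. Of these, Insig1, which retains SREBP in the ER, gave −0.84 (SE 0.06, limma adjusted p 8.55e-11). It was higher in S983A CON (0.92), and its 16 h levels were 279 and 277 TPM in WT and 302 and 287 TPM in S983A. The higher ones did not hold with ERCC, and among them was the sterol exporter Abca1 (0.75, and 0.32 with ERCC), which fell in WT (−1.25). Srebf2 itself (−0.45) was under 1.5-fold. Of 21 genes of fatty acid synthesis, 1 was lower and 3 higher. Fads1, a desaturase of long fatty acids, was the lower one (−0.75, SE 0.05, limma adjusted p 6.21e-11), from 223 and 213 to 509 and 527 TPM in WT and from 376 and 360.4 to 527 and 513 TPM in S983A. Acsl1 (0.71), Acaca (0.72) and Gpam (0.84) were higher in TPM and not with ERCC.

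**Figure D2:**
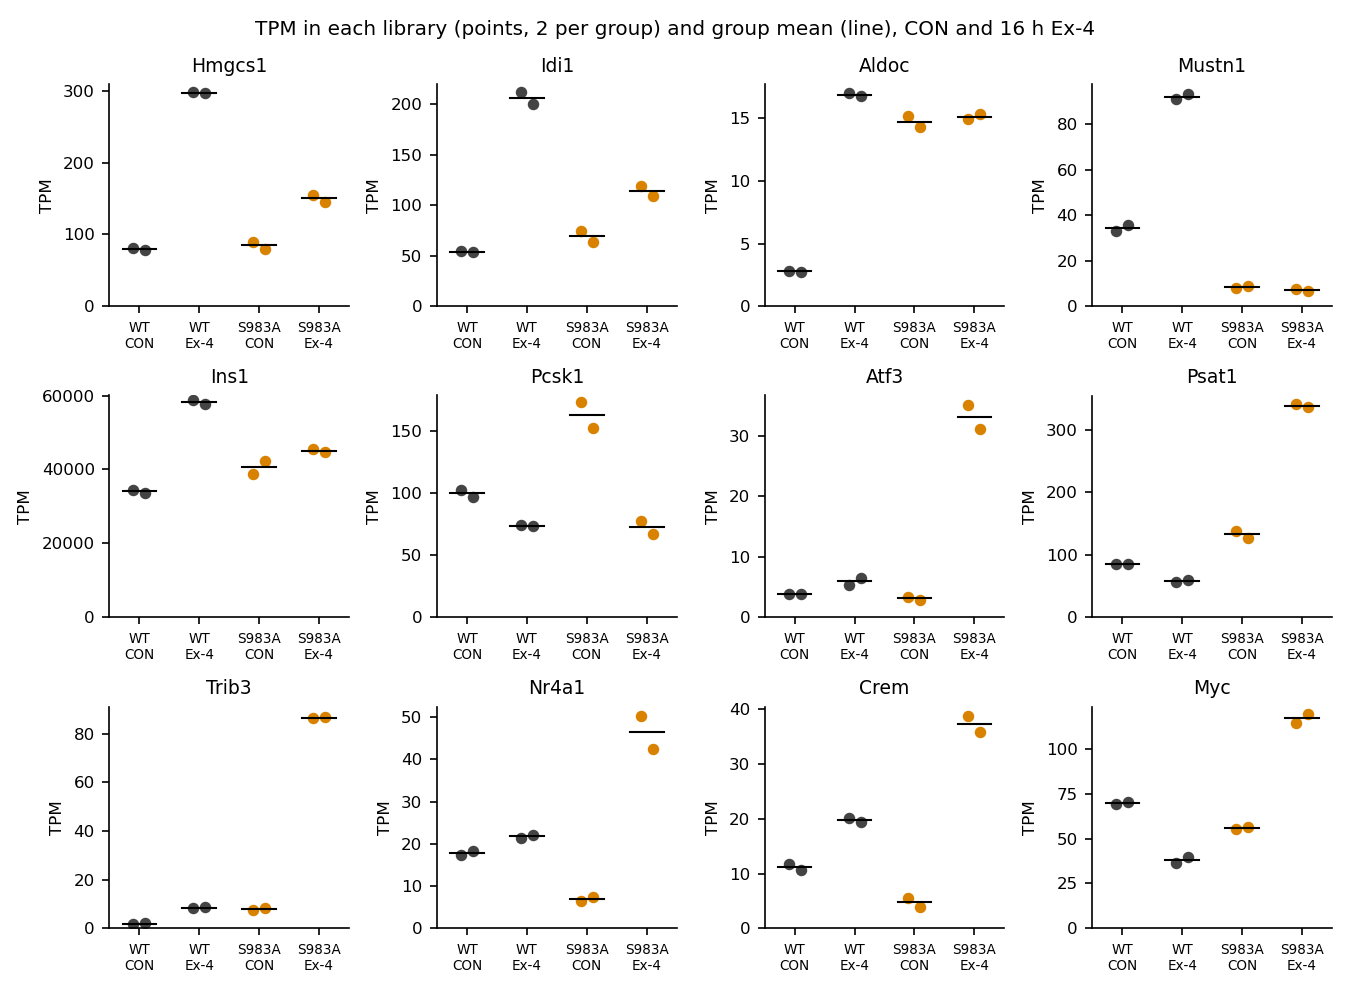
TPM (linear vertical axis from 0) in each of the 8 libraries for 12 genes, with a point for each library and a line at the mean of the 2 replicates of a group. Hmgcs1 and Idi1 rose further in WT than in S983A, while Atf3, Trib3 and Nr4a1 were highest in the S983A libraries at 16 h.

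The genes with the lowest differences outside the sterol pathway either rose in WT alone or fell in S983A, some of them also in WT. LOC691995, a predicted gene, was at 6.10 and 5.20 TPM in WT CON, 29.5 and 26.2 TPM in WT at 16 h of Ex-4, 8.08 and 6.72 TPM in S983A CON and 5.05 and 4.40 TPM in S983A at 16 h. Its rise was seen in WT alone, both S983A libraries at 16 h lay below the S983A CON libraries, and the difference was −2.67 (SE 0.19, limma adjusted p 4.7e-11). Aldoc (NM_012497, rn6 chromosome 10, 65586504 to 65590093), a glycolytic aldolase, went from 2.81 and 2.76 to 17.001 and 16.8 TPM in WT, while all 4 S983A libraries, at 15.2 and 14.3 TPM in CON and 14.95 and 15.4 TPM at 16 h, already lay near the WT 16 h level. The WT CON libraries stood apart from the other 6, and the difference was −2.21 (SE 0.12, limma adjusted p 4.21e-13). Nxph4, a neurexophilin, went from 5.02 and 4.17 to 12.5 and 11.98 TPM in WT and from 21.8 and 21.8 to 13.2 and 15.3 TPM in S983A, so that the genotypes were apart at CON and close at 16 h (−1.83, SE 0.13, limma adjusted p 3.43e-11). Mustn1 was the opposite case. It rose from 33.1 and 35.5 to 91.0 and 93.1 TPM in WT and stayed at 8.05 and 8.75 and then 7.57 and 6.57 TPM in S983A, with a difference of −1.62 (SE 0.09, limma adjusted p 1.02e-12).

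Pcp4l1, Cckar and Cdhr1 passed in neither direction in WT and fell in S983A. Cckar, the receptor for cholecystokinin on pancreatic cells, was at 43.6 and 38.1 TPM in WT CON, 46.4 and 49.5 TPM in WT at 16 h of Ex-4, 19.03 and 19.6 TPM in S983A CON and 9.19 and 8.30 TPM in S983A at 16 h, with the lowest values in both S983A libraries at 16 h and a difference of −1.29 (SE 0.09, limma adjusted p 1.98e-11). Pcp4l1 (−1.29, SE 0.10, limma adjusted p 2.07e-10) and the cadherin Cdhr1 (−1.25, SE 0.07, limma adjusted p 1.11e-12) began higher in S983A CON, at 65.7 and 67.3 TPM and 96.7 and 93.7 TPM, and fell to 35.9 and 35.6 TPM and 50.9 and 47.6 TPM, toward the WT 16 h levels of 30.9 and 31.2 TPM and 37.7 and 40.7 TPM. Mt1, a metallothionein that binds zinc, fell in both genotypes and further in S983A. It was at 164 and 162 TPM in WT CON, 54.5 and 61.4 TPM in WT at 16 h of Ex-4, 152 and 166 TPM in S983A CON and 16.2 and 24.5 TPM in S983A at 16 h, with a difference of −1.46 (SE 0.15, limma adjusted p 5.44e-08). The 2 S983A libraries at 16 h were the lowest of the 8, and the CON difference did not reach 1.5-fold.

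Transcripts that identify the beta cell and its secretory granules were mostly under 1.5-fold in TPM, with a few lower, and more of them were lower under the other scalings. Of the 11 tested markers of the beta cell line, 2 were lower in TPM, 10 on the ERCC scale and 6 once median-centred, where the shares over all genes were 1.81%, 16.6% and 3.68%. Of 17 beta cell transcription factors 3 were lower in TPM, Nkx6-1 and Isl1 among them, and 0 higher, with 4 lower after median-centring and 7 with ERCC. Of the 6 members with a difference above 0, none passed an unadjusted p of 0.05 with limma, and edgeR and DESeq2 called 0. The list median was −0.08 in TPM, −0.21 when median-centred and −0.46 with ERCC. Nkx6-1, which maintains beta cell identity, was at 51.4 and 53.0 TPM in WT CON, 50.7 and 53.0 TPM in WT at 16 h of Ex-4, 32.5 and 36.7 TPM in S983A CON and 20.4 and 23.9 TPM in S983A at 16 h, within 1.5-fold in WT and falling in S983A (−0.62, SE 0.09, limma adjusted p 1.07e-05). Its call was lost without replicate 2 of WT at 16 h (−0.58), without replicate 2 of S983A CON (−0.53) and without replicate 1 of S983A at 16 h (−0.51). Isl1 (−0.59) likewise lost its call without replicate 2 of WT CON (−0.54), of WT at 16 h (−0.57) or of S983A at 16 h (−0.58). The count for this list was 1 to 3 when 1 library was left out.

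Of 17 insulin and granule cargo genes, 4 were lower in TPM and 1 was higher, beside 1.81% and 5.43% of all genes. After median-centring 7 were lower (3.68% of all genes were), and 9 with ERCC (16.6%). The list median was −0.18 in TPM, −0.31 when median-centred and −0.62 with ERCC. Pcsk2, a proinsulin convertase, was at 748 and 693 TPM in WT CON, 1318 and 1357 TPM in WT at 16 h of Ex-4, 739 and 737 TPM in S983A CON and 847 and 835 TPM in S983A at 16 h. It rose in WT alone, and both S983A libraries at 16 h were below both WT ones (−0.70, SE 0.05, limma adjusted p 4.22e-11). Its partner Pcsk1 was at 103 and 96.8 TPM in WT CON, 73.9 and 73.5 TPM in WT at 16 h of Ex-4, 173 and 152 TPM in S983A CON and 77.8 and 66.9 TPM in S983A at 16 h, falling in S983A from a higher start to the WT level (−0.73, SE 0.08, limma adjusted p 2.29e-07). Pam, which amidates peptide hormones, rose in both genotypes from different starts, by 2.08 in WT and 1.37 in S983A, with a difference of −0.71 (SE 0.06, limma adjusted p 3.55e-09). Chgb, the granule protein chromogranin B, was the higher member in TPM (0.67), but not after median-centring (0.54) or with ERCC (0.22), and its CON levels were 1360.3 and 1341 TPM in WT against 176 and 176 TPM in S983A.

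Ins1 was at 34501 and 33716 TPM in WT CON and 58758 and 57777 TPM in WT at 16 h, against 38834 and 42395 TPM in S983A CON and 45426 and 44612 TPM in S983A at 16 h. It rose in WT and was within 1.5-fold in S983A, with a difference of −0.62 (SE 0.08, limma adjusted p 6.48e-07) that was −0.56, under 1.5-fold, without replicate 2 of S983A CON. Ins2 was at 2885 and 2991 TPM in WT CON and 32620.4 and 37516 TPM in S983A CON, and at 2463 and 2359 TPM and 20103 and 20500.4 TPM at 16 h. Its difference of −0.50 (SE 0.08, limma adjusted p 2.29e-05) was under 1.5-fold in TPM, and it was called after median-centring (−0.63), with ERCC (−0.94) and without replicate 1 of S983A CON (−0.60). The insulin genes are near-identical copies, so the split of their reads is uncertain.

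Of 21 genes of granule exocytosis, 3 were lower and 0 higher in TPM, beside 1.81% and 5.43% of all genes. After median-centring 4 were lower (3.68% of all genes were), and 9 with ERCC (16.6%). The median was −0.11 in TPM, −0.24 when median-centred and −0.55 with ERCC. Of the 8 members above 0, 5 passed an unadjusted p of 0.05 with limma, and edgeR and DESeq2 called 0 of them. Rab3a, a GTPase of the granule surface, rose from 179.9 and 167 to 355 and 365 TPM in WT and was within 1.5-fold in S983A, at 215 and 224 and then 266 and 277 TPM (−0.74, SE 0.05, limma adjusted p 6.86e-11). Rab3b fell in S983A alone (−0.64, SE 0.08, limma adjusted p 9.78e-07). Snap25, a SNARE of the plasma membrane, gave −0.61 and lost its call without replicate 1 of S983A CON (−0.56) or replicate 2 of S983A at 16 h (−0.57). Among 8 tested neuropeptides and hormones, 3 were lower and 1 higher, and the higher one held under all scalings. Cartpt, the precursor of the CART peptide, rose in both genotypes and was at 7.71 and 9.07 TPM in WT CON, 71.0 and 71.2 TPM in WT at 16 h of Ex-4, 10.9 and 11.6 TPM in S983A CON and 49.2 and 47.4 TPM in S983A at 16 h, with a difference of −0.94 (SE 0.10, limma adjusted p 6.18e-08). Cck, the cholecystokinin precursor, rose from 24.1 and 25.5 to 158 and 158 TPM in WT and from 33.1 and 38.5 to 122 and 127 TPM in S983A (−0.85, SE 0.07, limma adjusted p 1.17e-09). Tac1, which encodes substance P, went the other way, at 8.40 and 7.62 TPM in WT CON, 14.2 and 13.1 TPM in WT at 16 h of Ex-4, 8.52 and 7.75 TPM in S983A CON and 45.0 and 39.4 TPM in S983A at 16 h, with a difference of 1.54 (SE 0.13, limma adjusted p 1.47e-09).

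Chaperones of the ER and targets of ATF4, which are often described together as the unfolded protein response, gave different values here. Of 24 genes of ER protein folding, 1 was lower in TPM and once median-centred, and 15 were with ERCC, where 16.6% of all genes were lower. The median was −0.23 in TPM, −0.36 when median-centred and −0.67 with ERCC. Of these genes 16 rose in WT (3.53% of all genes did) and 3 in S983A (4.73%), and 9 were higher in S983A CON than in WT CON (8.29%). The median response was 0.65 in WT and 0.45 in S983A, on either side of the 1.5-fold minimum (0.585 in log2), so the 2 counts overstate the gap. Sdf2l1, a cofactor of the chaperone BiP, was the called gene. It was at 50.1 and 46.4 TPM in WT CON, 114 and 116 TPM in WT at 16 h of Ex-4, 219 and 230.5 TPM in S983A CON and 270.4 and 291 TPM in S983A at 16 h, so that its S983A level was above that of WT at both times and its response was smaller (−0.92, SE 0.07, limma adjusted p 9.13e-11). Hspa5, which encodes BiP, rose by 0.65 in WT, and its response was 0.30 in S983A, for a difference of −0.35 (SE 0.06, limma adjusted p 0.000142) that was under 1.5-fold in TPM and called lower with ERCC (−0.79). Kdelr3, which returns chaperones from the Golgi (−0.93, SE 0.09, limma adjusted p 7.16e-09), and Derl3, of ER degradation (−0.91, SE 0.08, limma adjusted p 4.21e-09), were lower and, like Sdf2l1, higher in S983A CON. Sec16b, a protein of ER exit sites, was higher (1.06), its WT libraries being at 0.129 TPM or less. Bhlha15, a secretory cell transcription factor listed with the acinar markers, was at 16.3 and 14.8 TPM in WT CON, 40.8 and 40.7 TPM in WT at 16 h of Ex-4, 47.0 and 47.2 TPM in S983A CON and 74.2 and 69.8 TPM in S983A at 16 h, with a difference of −0.74 (SE 0.10, limma adjusted p 1.2e-06).

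Of 23 sensors of the unfolded protein response and targets of ATF4, 19 had a higher response in S983A in TPM and 0 a lower one. Over all genes the shares were 5.43% and 1.81%. After median-centring 17 were higher and 1, Xbp1, lower. With ERCC 8 were higher and Xbp1 lower. The 1 member below 0 in TPM, Xbp1 (−0.48), passed an unadjusted p of 0.05 with limma and was called lower by edgeR and by DESeq2. The median difference was 0.93 in TPM, 0.80 when median-centred and 0.51 with ERCC, and without 1 library 18 to 19 genes were higher. In WT 6 of the 23 rose and in S983A 20 did, beside 3.53% and 4.73% of all genes. At CON 7 were higher in S983A and 1 lower, beside 8.29% and 11.1% of all genes. At 16 h 18 were higher, where 10.6% of all genes were higher in S983A and 10.2% lower.

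Atf3 (NM_012912, rn6 chromosome 13, 109817893 to 109849632), a stress-induced transcription factor, was at 3.81 and 3.86 TPM in WT CON, 5.36 and 6.51 TPM in WT at 16 h of Ex-4, 3.36 and 2.94 TPM in S983A CON and 35.1 and 31.2 TPM in S983A at 16 h. The 6 other libraries were at 6.51 TPM or less, far under the S983A libraries at 16 h, and the difference was 2.52 (SE 0.14, limma adjusted p 4.96e-13). Trib3, a pseudokinase that acts back on this pathway, was at 1.60 and 2.30 TPM in WT CON, 8.32 and 8.81 TPM in WT at 16 h of Ex-4, 7.51 and 8.27 TPM in S983A CON and 86.5 and 87.0 TPM in S983A at 16 h. It rose in both genotypes, by 1.71 in WT and 3.30 in S983A, and its S983A CON level was near the WT level at 16 h (1.60, SE 0.13, limma adjusted p 8.82e-10). Chac1, an enzyme that degrades glutathione, behaved alike, from 3.04 and 2.65 to 11.2 and 9.77 TPM in WT and from 12.3 and 12.7 to 94.6 and 90.8 TPM in S983A (1.21, SE 0.12, limma adjusted p 2.86e-08). Atf4 itself went from 271 and 277 to 409 and 421 TPM in WT and from 376 and 360.4 to 1130.2 and 1082 TPM in S983A (0.99, SE 0.07, limma adjusted p 4.93e-11), and Ddit3, which encodes CHOP, gave 1.01 (SE 0.09, limma adjusted p 1.38e-09). The calls of Atf4 and Ddit3 did not hold with ERCC (0.55 and 0.57).

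The enzymes of serine, asparagine and folate metabolism named here did not pass 1.5-fold upward in WT in TPM, although Aldh1l2 did with ERCC (a WT response of 0.61). Psat1, of serine synthesis, was at 85.8 and 85.1 TPM in WT CON, 56.7 and 60.0 TPM in WT at 16 h of Ex-4, 139 and 127 TPM in S983A CON and 341 and 336 TPM in S983A at 16 h, with a difference of 1.89 (SE 0.07, limma adjusted p 2.62e-16). Psph, the last enzyme of that route, was at 129 and 133 TPM in WT CON, 94.8 and 91.5 TPM in WT at 16 h of Ex-4, 53.7 and 51.6 TPM in S983A CON and 136 and 135 TPM in S983A at 16 h: S983A began lowest and ended above WT (1.84, SE 0.07, limma adjusted p 3.79e-16). Asns, which makes asparagine, went from 92.6 and 93.6 to 102 and 111 TPM in WT and from 129.8 and 121 to 328 and 330.2 TPM in S983A (1.199, SE 0.06, limma adjusted p 4.59e-14). Of the mitochondrial folate enzymes, Aldh1l2 was at 1.75 and 1.75 TPM in WT CON, 2.58 and 2.58 TPM in WT at 16 h of Ex-4, 6.69 and 5.65 TPM in S983A CON and 33.5 and 31.0 TPM in S983A at 16 h (1.83, SE 0.11, limma adjusted p 3.76e-12), Mthfd2 gave 1.098 (SE 0.05, limma adjusted p 8.6e-14) and Mthfd1l 1.35 (SE 0.07, limma adjusted p 2.03e-13), the last of which fell in WT, from 33.6 and 34.8 to 15.4 and 16.6 TPM, while S983A stood at 33.9 and 31.9 and then 41.4 and 39.8 TPM. Slc7a11, the cystine transporter, was at 0.128 and 0.133 TPM in WT CON, 0.965 and 0.941 TPM in WT at 16 h of Ex-4, 0.900 and 0.704 TPM in S983A CON and 16.5 and 13.8 TPM in S983A at 16 h. All WT libraries were under 1 TPM, so its difference of 2.37 (SE 0.12, limma adjusted p 2.54e-13) depends on the pseudocount, and it was 1.89 with a pseudocount of 0.1. The amino acid transporter subunits Slc7a5 (0.75) and Slc3a2 (0.73) were called in TPM and not with ERCC. Cebpb (0.72) and the ER sensor Atf6 (0.66) were the least firm. Cebpb was at 0.54 without replicate 2 of WT CON and at 0.57 without replicate 2 of S983A at 16 h. Atf6 was at 0.53 without replicate 1 of WT CON and at 0.55 without replicate 1 of S983A at 16 h.

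Of 18 cytosolic tRNA synthetases, which attach amino acids to tRNAs, 10 were higher in TPM and 0 lower, 5 were higher after median-centring and 0 with ERCC. Over all genes the higher shares were 5.43%, 3.21% and 1.34% in that order. The median difference was 0.67 in TPM, 0.54 when median-centred and 0.24 with ERCC. In S983A 12 of the 18 rose and in WT 0 did, beside 4.73% and 3.53% of all genes. The 1 member below 0, Qars1, did not pass an unadjusted p of 0.05 with limma, and edgeR and DESeq2 called 0 lower. Yars1 was at 162 and 162 TPM in WT CON, 167 and 171 TPM in WT at 16 h of Ex-4, 258 and 246 TPM in S983A CON and 488 and 485 TPM in S983A at 16 h, with a difference of 0.88 (SE 0.05, limma adjusted p 2.67e-12). Eprs was at 135 and 136 TPM in WT CON, 152 and 157 TPM in WT at 16 h of Ex-4, 154 and 144 TPM in S983A CON and 318 and 307 TPM in S983A at 16 h, with a difference of 0.87 (SE 0.06, limma adjusted p 2.94e-11). In both cases the 2 S983A libraries at 16 h lay above all the other libraries, and WT stayed within 1.5-fold. The 8 synthetases not called in TPM ranged from −0.01 (Qars1) to 0.56 (Gars).

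The promoters of these genes were searched, in the RefSeq sequence of build GRCr8, for the letters TGATGNAA on either strand in the 250 bases before the annotated start. These letters, the C/EBP-ATF response element that ATF4 is known to bind, were present in 1.77% of the promoters of 8201 tested genes. They were present in 2 of the 20 ATF4 list genes with a promoter sequence, Trib3 and Chac1, and in 4 of 11 tRNA synthetases. All of these were called genes, but so were 16 of the 20 and 8 of the 11 as a whole. The start used in INS-1 cells may be another one, and a match is a description of the letters alone. The stretches around the matches are shown 5′ to 3′ along the gene, with the matching letters in capitals, for the ATF4 list genes and for 3 of the synthetases. They lie at chr3:161275534-161275584, minus strand (Trib3), chr3:126795934-126796001, plus strand (Chac1), chr17:15193653-15193706, minus strand (Iars1), chr7:65023754-65023800, minus strand (Mars1) and chr2:62114803-62114859, minus strand (Tars1).
Trib3: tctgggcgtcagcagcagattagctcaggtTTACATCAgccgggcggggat
Chac1: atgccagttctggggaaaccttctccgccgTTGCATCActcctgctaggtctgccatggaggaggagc
Iars1: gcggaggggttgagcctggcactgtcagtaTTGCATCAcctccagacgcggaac
Mars1: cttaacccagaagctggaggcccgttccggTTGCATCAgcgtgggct
Tars1: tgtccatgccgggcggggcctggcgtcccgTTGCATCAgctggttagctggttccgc
In all 5 shown the capitals hold TGATGNAA on the strand opposite to the gene. In the remaining synthetase, Nars1, the letters lie on the strand of the gene. The sterol response element letters TCACNCCAC were in 0.939% of all tested promoters and in 0 of 16 cholesterol synthesis promoters and 0 of 12 of cholesterol uptake and sensing, which says only that these letters are not in these windows.

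The list of CREB feedback genes mixes genes that dampen cAMP signalling, such as phosphodiesterases, with other CREB targets, such as the Nr4a genes and Per1. Of its 18 genes, 9 were higher in TPM and 0 lower, 7 were higher after median-centring and 4 with ERCC. Over all genes the higher shares were 5.43%, 3.21% and 1.34% in that order. The median difference was 0.60 in TPM, 0.47 when median-centred and 0.17 with ERCC. In WT 4 of the 18 rose and in S983A 11 did, beside 3.53% and 4.73% of all genes. At CON 9 were lower in S983A than in WT, as were 11.1% of all genes. The 1 member below 0, Pkib (−0.11), did not pass an unadjusted p of 0.05 with limma and was called by neither edgeR nor DESeq2. Nr4a1 (NM_024388, rn6 chromosome 7, 142912309 to 142920215), an orphan nuclear receptor, was at 17.3 and 18.4 TPM in WT CON, 21.4 and 22.2 TPM in WT at 16 h of Ex-4, 6.53 and 7.36 TPM in S983A CON and 50.3 and 42.4 TPM in S983A at 16 h. The S983A libraries were the lowest at CON and the highest at 16 h, and the difference was 2.29 (SE 0.12, limma adjusted p 2.21e-13). Crem, whose short products repress CREB targets, crossed in the same way, at 11.7 and 10.6 TPM in WT CON, 20.2 and 19.3 TPM in WT at 16 h of Ex-4, 5.48 and 3.97 TPM in S983A CON and 38.8 and 35.9 TPM in S983A at 16 h, with a difference of 1.98 (SE 0.12, limma adjusted p 1.8e-12). Sik1, a kinase that keeps the CREB coactivators out of the nucleus, went from 3.91 and 3.93 to 6.68 and 7.36 TPM in WT and from 1.71 and 1.27 to 9.16 and 7.32 TPM in S983A, ending close in both (1.19, SE 0.14, limma adjusted p 3.32e-07). The phosphodiesterase Pde4b gave 1.09 (SE 0.12, limma adjusted p 7.95e-08). Dusp1 (0.04) and Pde8a (0.06) were close to 0, and Pde10a (0.63) lost its call without replicate 1 of WT CON (0.54), of WT at 16 h (0.58) or of S983A at 16 h (0.49).

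Of 16 AP-1 and early growth response genes, 5 were higher and 0 lower, beside 5.43% and 1.81% of all genes. Of the 5, 2 held under all scalings. The median was 0.18 in TPM, 0.05 when median-centred and −0.16 with ERCC. Of the 4 members below 0, 1 passed an unadjusted p of 0.05 with limma, and edgeR and DESeq2 each called 1 lower. Egr4 was lower after median-centring (−0.60), and with ERCC Egr4 (−0.62), Klf4 (−0.59) and Ier5 (−0.59) were. Fos was at 2.16 and 1.91 TPM in WT CON, 2.24 and 2.32 TPM in WT at 16 h of Ex-4, 0.993 and 0.958 TPM in S983A CON and 7.11 and 4.91 TPM in S983A at 16 h, low in every group, with the S983A libraries lowest at CON and highest at 16 h (1.70, SE 0.15, limma adjusted p 1.68e-09). Junb (0.96), Fosl2 (0.84) and Jun (0.73) were called in TPM and after median-centring but not with ERCC, while Fosb (0.04), Fosl1 (0.02) and Egr1 (0.17) were near 0. Atf3, which is in this list as well, was the other gene that held.

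The complete cAMP response element TGACGTCA was in 3.11% of the 8201 promoters, in 1 of 15 CREB feedback promoters (Dusp1) and in 0 of the 7 that belong to called genes. Its core TGACG was in 29.9% of all promoters and in 9 of the 15, including Nr4a1, with 4 cores, and Sik1, with 2. The stretch that holds the cores is shown for these genes, which were picked after their values were seen. Crem, which also held under all scalings, had 2 cores. In the AP-1 and early growth response list the complete element was in 3 of 12 promoters (Jund, Ier2 and Btg2, none of them a called gene) and the core in 7 of 12. The capitals mark TGACG, or CGTCA where it lies on the other strand, in chr7:134259888-134260104, plus strand (Nr4a1) and chr20:9958807-9958852, minus strand (Sik1), GRCr8.
Nr4a1: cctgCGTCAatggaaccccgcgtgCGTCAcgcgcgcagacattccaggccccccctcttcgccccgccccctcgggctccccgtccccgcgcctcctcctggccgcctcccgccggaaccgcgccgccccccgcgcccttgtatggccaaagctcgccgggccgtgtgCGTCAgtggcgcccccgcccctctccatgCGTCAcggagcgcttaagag
Sik1: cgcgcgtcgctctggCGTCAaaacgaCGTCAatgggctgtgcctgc

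Further genes with the highest differences belonged to no list that moved as a whole. Ifi27l2b, a gene of the interferon-inducible Ifi27 family, was at 6.61 and 6.31 TPM in WT CON, 11.2 and 10.2 TPM in WT at 16 h of Ex-4, 3.78 and 5.45 TPM in S983A CON and 69.2 and 70.1 TPM in S983A at 16 h, the highest difference among these genes at 3.02 (SE 0.20, limma adjusted p 1.67e-11). Only 1 of 16 interferon response genes was called, and that was Ifi27l2b. Myc, the growth-promoting transcription factor, was at 69.4 and 70.5 TPM in WT CON, 36.2 and 39.7 TPM in WT at 16 h of Ex-4, 55.5 and 56.5 TPM in S983A CON and 115 and 119 TPM in S983A at 16 h: it fell in WT and rose in S983A, so that the groups overlapped neither at CON nor at 16 h, with a difference of 1.91 (SE 0.07, limma adjusted p 2.62e-16). Stk32a, a serine/threonine kinase, was at 4.90 and 3.92 TPM in WT CON, 6.25 and 7.02 TPM in WT at 16 h of Ex-4, 12.2 and 10.6 TPM in S983A CON and 63.6 and 61.4 TPM in S983A at 16 h, with a difference of 1.86 (SE 0.14, limma adjusted p 1.69e-10). Tnfrsf21, a death receptor, was at 15.03 and 13.6 TPM in WT CON, 14.5 and 15.9 TPM in WT at 16 h of Ex-4, 9.23 and 9.04 TPM in S983A CON and 38.4 and 38.5 TPM in S983A at 16 h, the S983A libraries again lowest at CON and highest at 16 h (1.88, SE 0.09, limma adjusted p 4.59e-14). Slc16a1, the monocarboxylate transporter that beta cells normally repress, was at 7.31 and 7.39 TPM in WT CON, 5.41 and 5.84 TPM in WT at 16 h of Ex-4, 9.78 and 9.59 TPM in S983A CON and 28.7 and 25.1 TPM in S983A at 16 h, with a difference of 1.72 (SE 0.11, limma adjusted p 5.7e-12). Nfil3, a repressor of the circadian clock, crossed as well, from 16.6 and 15.6 to 19.95 and 19.7 TPM in WT and from 7.05 and 6.76 to 32.3 and 29.0 TPM in S983A (1.72, SE 0.07, limma adjusted p 9e-15).

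A further set of higher differences arose from genes that fell in WT. Car2, a carbonic anhydrase, fell in WT from 24.2 and 21.9 to 11.9 and 11.6 TPM and rose in S983A from 20.1 and 19.5 to 33.8 and 30.1 TPM (1.58, SE 0.09, limma adjusted p 9.26e-13). Matk, a tyrosine kinase, did the same from a lower S983A start, at 22.9 and 21.1 TPM in WT CON, 10.9 and 10.2 TPM in WT at 16 h of Ex-4, 4.06 and 3.597 TPM in S983A CON and 7.18 and 6.38 TPM in S983A at 16 h (1.69, SE 0.16, limma adjusted p 9.54e-09). Cd83 fell in WT alone, from 27.1 and 28.9 to 12.8 and 14.5 TPM, beside 28.3 and 27.8 and then 34.2 and 30.7 TPM in S983A (1.19, SE 0.09, limma adjusted p 5.83e-11). Plcxd3 and the Hsp70-like Hspa12a were far lower in S983A before treatment. Plcxd3 fell from 48.1 and 42.9 to 14.4 and 15.2 TPM in WT and stood at 9.78 and 8.01 and then 8.37 and 6.86 TPM in S983A (1.36, SE 0.14, limma adjusted p 4.44e-08). Hspa12a fell in both, from 39.4 and 37.8 to 8.52 and 8.64 TPM in WT and from 5.56 and 5.09 to 2.88 and 2.82 TPM in S983A (1.33, SE 0.09, limma adjusted p 3.71e-11). For both genes the S983A libraries were below all WT libraries at each time.

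Where a gene was near 0 in one genotype, the size of its difference depended on the pseudocount of 1 TPM. Pgm5 was at 83.3 and 87.5 TPM in WT CON, 22.8 and 22.3 TPM in WT at 16 h of Ex-4, 0.377 and 0.223 TPM in S983A CON and 0.145 and 0.107 TPM in S983A at 16 h, with a difference of 1.67 that was 1.11 with a pseudocount of 0.1. The tissue plasminogen activator Plat was at 0.955 and 1.08 TPM in WT CON, 5.51 and 6.49 TPM in WT at 16 h of Ex-4, 0.0580 and 0.0150 TPM in S983A CON and 0.211 and 0.149 TPM in S983A at 16 h (−1.60, and −1.40 with 0.1). Gpx3, a secreted glutathione peroxidase, was at 96.3 and 91.4 TPM in WT CON, 95.1 and 99.9 TPM in WT at 16 h of Ex-4, 1.00 and 0.829 TPM in S983A CON and 0.289 and 0.173 TPM in S983A at 16 h (−0.69, and −1.69 with 0.1). The peptide gene Nmu, neuromedin U, was at 0.123 and 0.452 TPM in WT CON, 1.90 and 1.71 TPM in WT at 16 h of Ex-4, 0.0520 and 0.0260 TPM in S983A CON and 0 and 0.0970 TPM in S983A at 16 h (−1.12, and −2.42 with 0.1). In these genes the S983A response was measured at levels of about 1 TPM or less.

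**Figure D3:**
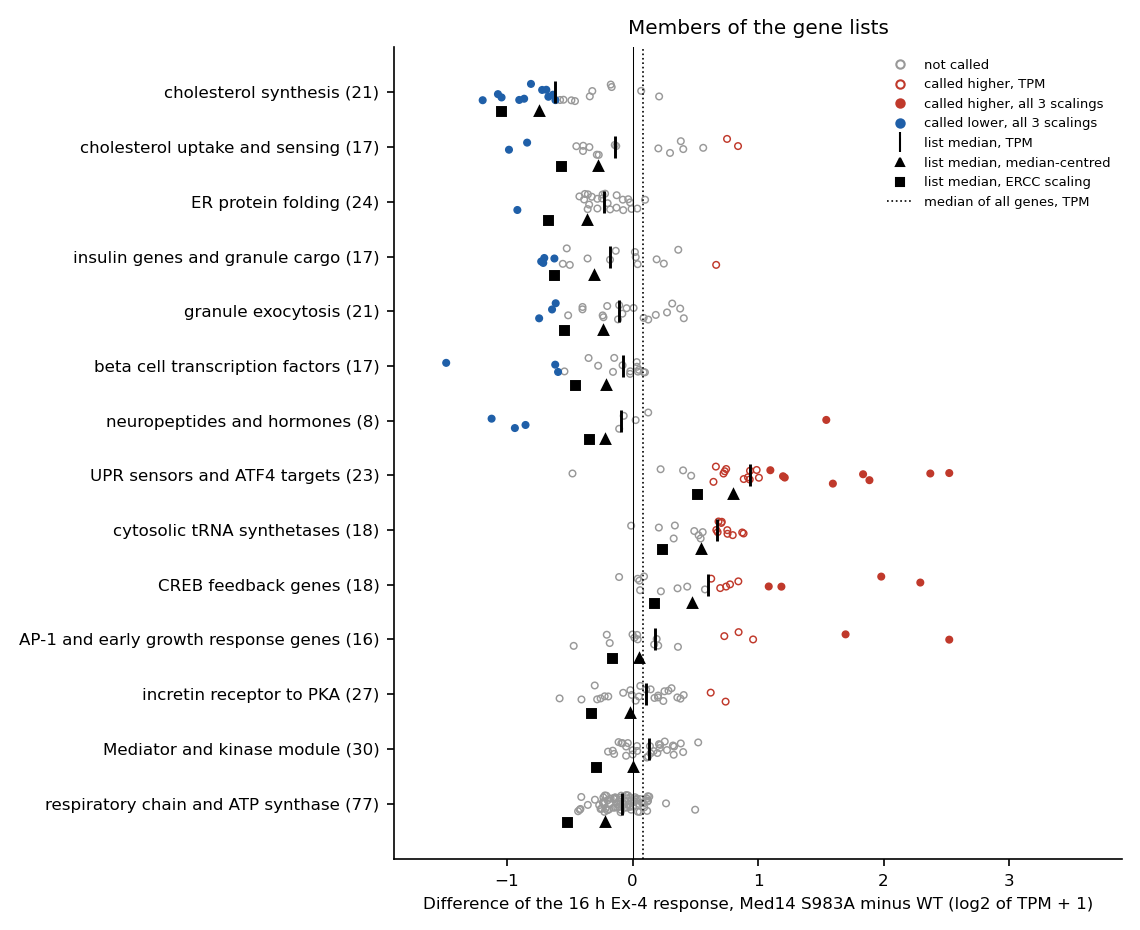
Difference of the 16 h Ex-4 response (log2, S983A minus WT, TPM as deposited) for each tested gene (points, coloured where called and filled where called under all 3 scalings) in 14 gene lists. Bars, triangles and squares mark the list median on the 3 scales (TPM, median-centred, ERCC), and the dotted line marks the median of all 10275 genes in TPM, 0.09. Cholesterol synthesis genes lie mostly below 0, and ATF4 targets, tRNA synthetases and CREB feedback genes mostly above it.

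Other groups had few calls in TPM, where 5.43% of all genes were higher and 1.81% lower. Of 27 genes from the incretin receptor to PKA 2 were higher (7.41%), the adenylyl cyclase Adcy1 (0.74) and the regulatory subunit Prkar2a (0.62), the latter falling to 0.56, 0.52 and 0.52 without replicate 1 of WT CON, of WT at 16 h and of S983A at 16 h. With ERCC, 7 of the 27 were lower, as were 16.6% of all genes. Of 14 glycolysis genes 1 was lower (Aldoc) and 1 higher (Pfkfb3, 0.80), of 26 TCA cycle genes 1 lower (Pdk2, −0.59, and −0.54, −0.56 and −0.57 without replicate 2 of WT CON, of WT at 16 h and of S983A CON), of 18 NRF2 targets 2 higher (Slc7a11, and Gclc at 0.85), and of 15 clock genes 3 higher (Nfil3, Ciart at 1.0003 and Per1 at 0.70) and 1 lower (Npas2, −0.70, and −0.58 without replicate 2 of S983A at 16 h). In the lists for Mediator (30 genes), the respiratory chain (77), mitochondrial ribosomes (65), cytosolic ribosomes (75), the proteasome (37) and ER import (21), limma called 0 genes in TPM and 0 once libraries were median-centred. ERCC scaling gave lower genes in each of them, 2, 26, 4, 3, 3 and 2 in that order, where 16.6% of all genes were lower. In TPM, over these 305 genes together, 153 passed an unadjusted p of 0.05 with limma and 125 an adjusted p of 0.05. Of all 10275 genes, 2995 higher and 1322 lower ones passed that adjusted p without the fold minimum. The differences of the 305 ran from −0.47 to 0.57 with a median of 0.09. For these genes edgeR with TMM and DESeq2 with its own size factors also called 0. Cytosolic ribosomal genes share reads with many pseudogenes, and Rpl7a, for example, was at only 1.71 and 2.33 TPM in S983A at 16 h.

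At 8 h of Ex-4 the difference of the response was called for fewer genes, 203 higher (1.98%) and 82 lower (0.798%), again against the same CON libraries. Since the 8 h and 16 h differences share CON, the change between them was tested directly in the treated libraries, where 174 genes were higher (1.69%) at 16 h than at 8 h and 103 lower (1.0%). Of the 21 cholesterol synthesis genes 13 were lower at 16 h than at 8 h in this test, and the list median of the difference of the response was 0.03 at 8 h and −0.61 at 16 h. Hmgcs1 had a difference of the response of −0.25 at 8 h and −1.07 at 16 h, and the change from 8 to 16 h was −0.82 (SE 0.08, limma adjusted p 2.55e-08). In WT its mean was 147 TPM at 8 h and 297 TPM at 16 h, and in S983A 132 TPM and 150.03 TPM. Idi1 gave −0.36 and −1.19, with a change of −0.83. Mt1 (−0.07 at 8 h, −1.46 at 16 h, change −1.39) was also lower at 16 h than at 8 h, and for Aldoc and Nxph4 the changes were −1.58 and −1.35.

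Of the higher genes, some were already apart at 8 h and some were not. Chac1 had 1.27 at 8 h and 1.21 at 16 h, and the change between them, −0.05 (SE 0.12, limma adjusted p 0.799), did not pass. Trib3 (1.11, 1.60, change 0.48) and Aldh1l2 (1.36, 1.83, change 0.48) were also called at 8 h with a change under 1.5-fold. Atf3 went from 1.02 to 2.52 (change 1.502, SE 0.14, limma adjusted p 1.57e-08) and Slc7a11 from 0.95 to 2.37 (change 1.42). Fos, Crem, Stk32a and Tac1 were within 1.5-fold at 8 h (0.26, 0.29, 0.30 and 0.04), with changes of 1.43, 1.70, 1.56 and 1.502 between 8 and 16 h that were called.

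The CREB targets had their first peak in both genotypes long before. Nr4a1 was at 532 and 632 TPM in WT and 353 and 412 TPM in S983A at 1 h of Ex-4, at 52.1 and 56.2 TPM and 39.5 and 39.1 TPM at 8 h, and at 21.4 and 22.2 TPM and 50.3 and 42.4 TPM at 16 h. Fos was at 45.1 and 47.1 TPM and 23.1 and 28.1 TPM at 1 h and at 6.802 and 7.05 TPM and 5.23 and 5.16 TPM at 8 h. The 16 h levels of both genes in S983A were far below their 1 h levels.

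**Figure D4:**
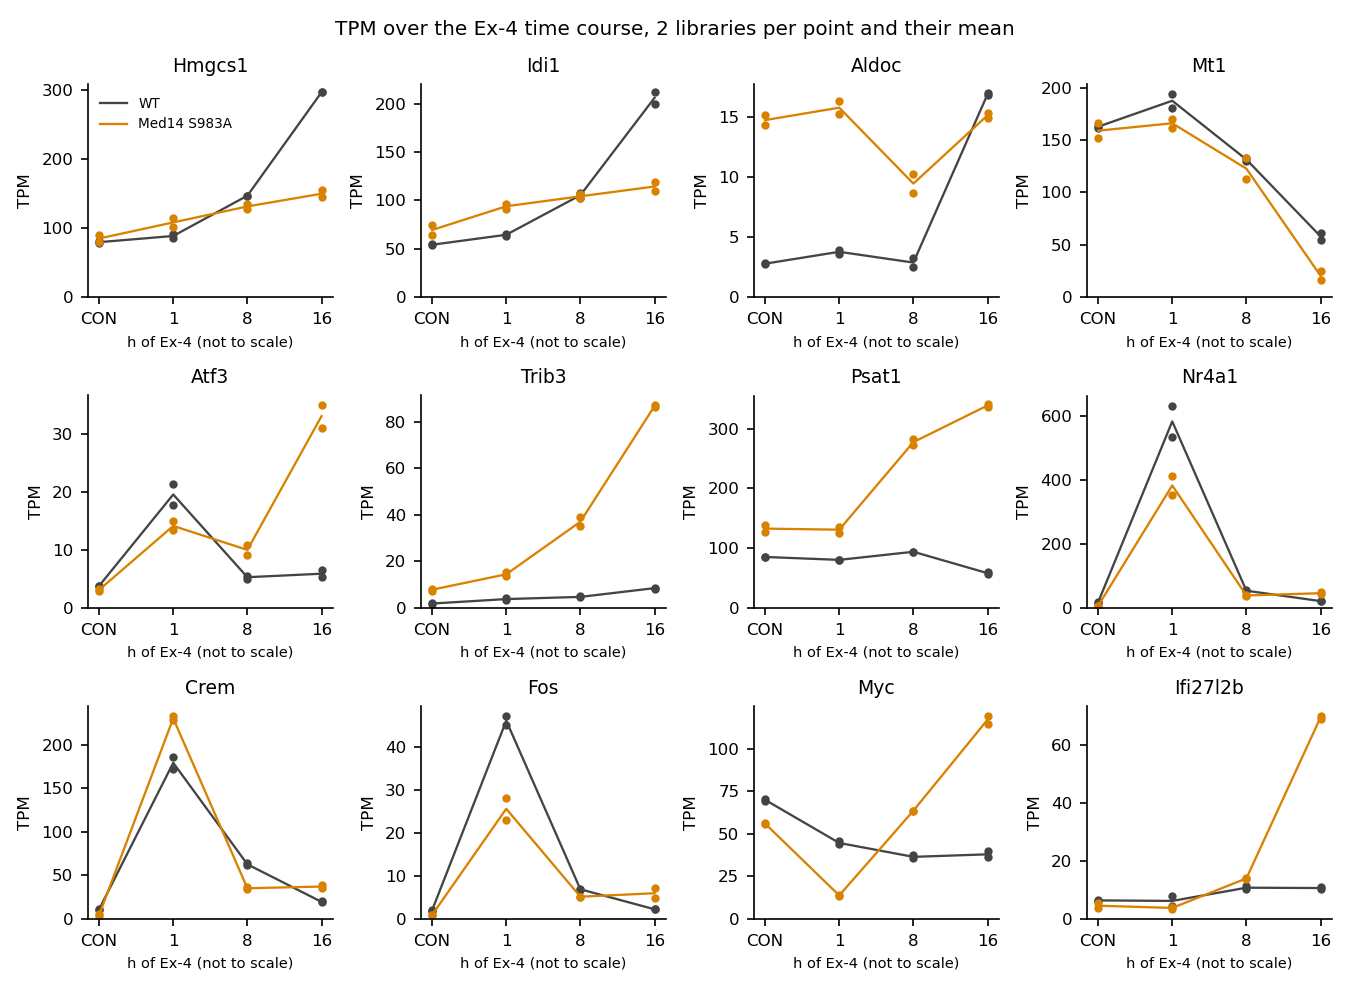
TPM (linear vertical axis from 0) of 12 genes at CON and after 1, 8 and 16 h of Ex-4 (horizontal axis, not to scale) in WT and Med14 S983A, with a point for each library and lines through the means of the 2 replicates. Nr4a1 and Fos peak at 1 h in both genotypes, and at 16 h the S983A libraries are above those of WT for Atf3 and Trib3 and below them for Hmgcs1. For Trib3 they are above them at all 4 points.

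With 16 h of FSK, 1091 genes had a higher response in S983A (10.6%) and 658 a lower one (6.4%), against the same CON libraries. Tested between the treated libraries, the difference was higher with Ex-4 than with FSK for 407 genes (3.96%) and lower for 329 (3.2%). For Hmgcs1 and Idi1, of sterol synthesis, the FSK difference lay further below 0. Hmgcs1 had −1.81 with FSK and −1.07 with Ex-4, and these differed by 0.74 (SE 0.08, limma adjusted p 4.55e-08). Idi1 had −1.99 and −1.19 (differing by 0.79). Kdelr3 (−2.40 with FSK), Mustn1 (−3.19), Pcp4l1 (−2.11) and Pcsk1 (−1.60) were also further below 0 with FSK, by 1.46, 1.57, 0.82 and 0.88.

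Of the 23 sensors of the unfolded protein response and targets of ATF4, 18 had a higher difference with Ex-4 than with FSK. With FSK 3 of the 23 had a higher response in S983A and 4 a lower one, beside 19 higher with Ex-4. Atf3 had a difference of 0.01 with FSK and 2.52 with Ex-4, a gap of 2.52 (SE 0.14, limma adjusted p 3.6e-13), and its TPM at 16 h of FSK was 54.9 and 59.8 in WT and 48.4 and 50.1 in S983A. Trib3 (−0.98 with FSK, 1.60 with Ex-4) and Chac1 (−1.49, 1.21) were called in opposite directions, with gaps of 2.58 and 2.70. Trib3 at 16 h of FSK was at 90.9 and 95.9 TPM in WT and 142 and 146 TPM in S983A, so that the genotypes were much nearer than with Ex-4. For Aldh1l2, Stk32a, Nr4a1, Fos and Psat1 the gaps were 2.17, 1.68, 2.00, 1.73 and 1.57, and none of these 5 was past 1.5-fold with FSK. Other higher genes were called with both agonists, with gaps under 1.5-fold, among them Myc (2.27 with FSK, gap −0.36, SE 0.07, limma adjusted p 0.000139), Tnfrsf21 (1.71, gap 0.17), Slc16a1 (1.95, gap −0.23) and Tac1 (1.73, gap −0.19).

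**Figure D5:**
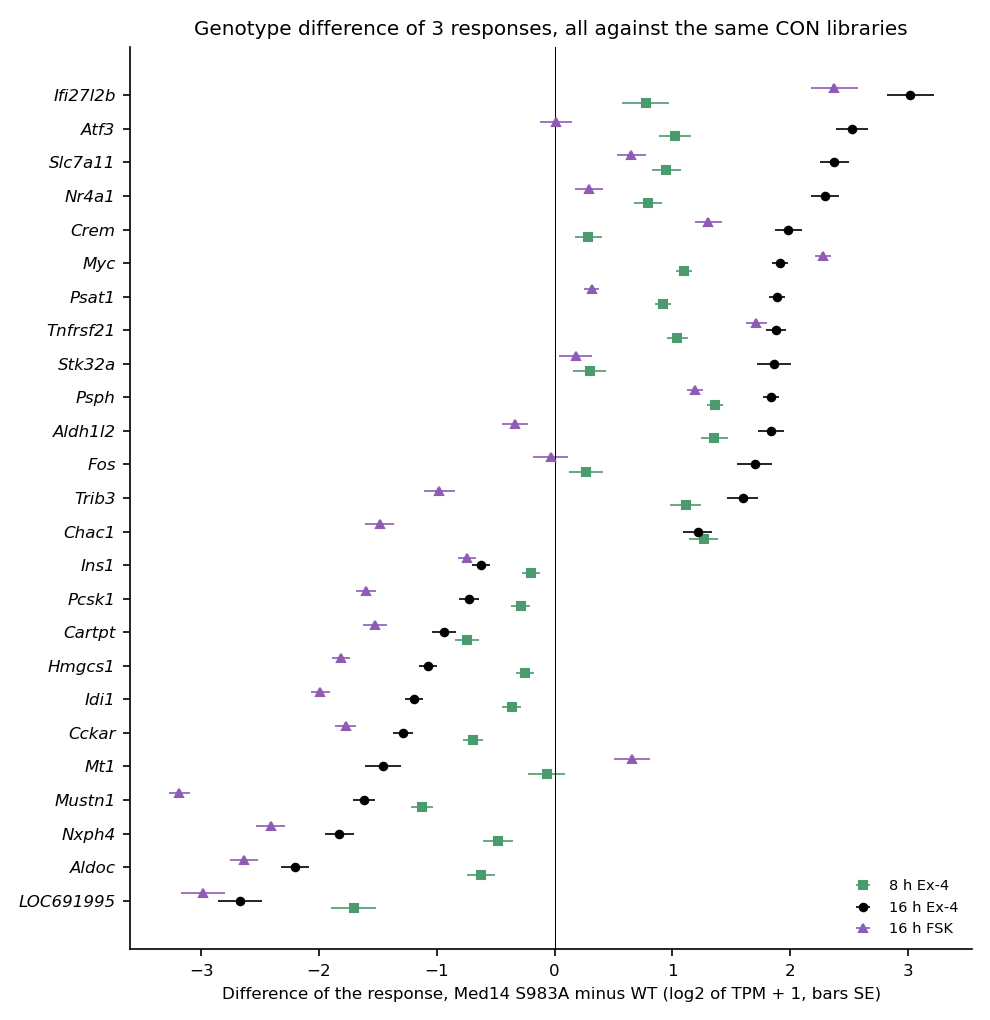
Difference of the response (log2, S983A minus WT) at 8 h of Ex-4, 16 h of Ex-4 and 16 h of FSK for named genes, with bars of 1 standard error. All 3 differences share the CON libraries, and Atf3, Trib3 and Chac1 are far above 0 with 16 h of Ex-4 and not with FSK.

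Several other genes were not called in TPM at 16 h of Ex-4. Txnip, a thioredoxin inhibitor repressed by cAMP, was at 329 and 312 TPM in WT CON, 33.1 and 32.8 TPM in WT at 16 h of Ex-4, 55.9 and 52.9 TPM in S983A CON and 5.93 and 4.49 TPM in S983A at 16 h. It fell in both genotypes, with responses of −3.24 and −3.17, so that its difference was 0.08 (SE 0.12, limma adjusted p 0.636) although S983A CON was far below WT CON. With FSK its difference was 3.77, and the gap between agonists was −3.69 (SE 0.12, limma adjusted p 6.99e-17). Mdh1, a malate dehydrogenase (476 and 481 to 642 and 641 TPM in WT, 458 and 435 to 475 and 464 TPM in S983A), had −0.35 (SE 0.04, limma adjusted p 4.14e-07), under 1.5-fold in TPM and after median-centring and called lower with ERCC (−0.79). The citrate carrier Slc25a1 (−0.07, SE 0.06, limma adjusted p 0.351) and the oxysterol binding protein Osbpl6 (−0.14, SE 0.13, limma adjusted p 0.392) did not pass at 16 h of Ex-4.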

How the data were processed

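Total RNA of INS-1 cells was sequenced as bulk RNA-seq with ERCC spike-in. The authors aligned reads to rn6 with STAR 2.5.3a and made the deposited TPM values with HOMER 4.11.1 (one value per transcript and library). The deposited counts hold the 92 ERCC sequences alone, and the authors called genes with DESeq2 1.24.0. Of 19223 lines, the transcript with the highest mean TPM was kept per symbol (1676 dropped, 17455 symbols). Columns were matched to samples by genotype, treatment, hours and replicate in their names.

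Log2(TPM + 1) was fitted with limma 3.58.1 (trend) in R 4.3.3 over all 28 libraries, with 14 group means and 14 residual degrees of freedom, for the 10275 genes that averaged 1 TPM or more. Calls needed an adjusted p under 0.05 and 1.5-fold, two-sided. Scaling was as deposited, centred on each library's median, or by ERCC. Fragments were recovered from TPM and length. Of 49372 low values, 100% were within 0.05 fragments of a whole number of reads, at 2 reads a fragment, against 20% by chance. The values were rounded to whole fragments and tested with edgeR 4.0.16 and DESeq2 1.42.0. The study's own test needs gene counts, so limma was used. Depth was 42551133 to 56171844 fragments in the 8 libraries. Replicates differed by more than counting noise (chi-square per degree of freedom 4.34 to 9.16). On simulated data limma recovered 99% of 100 genes changed 2-fold and 100% of 100 changed 3-fold among 10275, with 2 wrong calls. The changed genes averaged 5 TPM or more, with as many raised as lowered, and the groups had no other difference. These rates therefore do not cover the line and treatment differences of the real data or the choice of scaling.

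Named genes were the 10 lowest and 10 highest differences called under all 3 scalings at a mean of at least 10 TPM and 1 TPM in each library, the 3 of each sign under 1 TPM in a library, the extreme called members of each list, the 3 largest of each response class, the 3 of each sign for 16 against 8 h and for Ex-4 against FSK, and a few fixed genes. Results for a few genes, 1 of the 10 lowest among them, are not reported here. Other list members were named after their values were seen. The members and lists were chosen with earlier results of these data known. Promoters, 250 bases before each start, came from RefSeq (GRCr8), for 8201 of the genes tested. Alternatives were a pseudocount of 0.1, other filters, no fold minimum, the 8 libraries alone, a replicate block, each library left out and the count models.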

Additional observations from a re-analysis of the deposited data

Results flagged for a closer look

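The contrast itself is a test of whether 2 genotypes respond differently, so the genes it called are listed here with their differences of the response (log2, S983A minus WT, TPM as deposited). It called 558 genes higher and 186 lower by limma. Of the 10 genes with the lowest differences that held under all 3 scalings, among those that averaged 10 TPM or more in the 8 libraries and reached 1 TPM in each, 9 were LOC691995 (−2.67), Aldoc (−2.21), Nxph4 (−1.83), Mustn1 (−1.62), Mt1 (−1.46), Pcp4l1 (−1.29), Cckar (−1.29), Cdhr1 (−1.25) and Idi1 (−1.19). The 10 with the highest differences were Ifi27l2b (3.02), Atf3 (2.52), Nr4a1 (2.29), Crem (1.98), Myc (1.91), Psat1 (1.89), Tnfrsf21 (1.88), Stk32a (1.86), Psph (1.84) and Aldh1l2 (1.83). With 2 libraries a group, single libraries far from their group were not searched for.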

How the results depend on the processing

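For the genes named by rule, the direction of each called difference held under the alternatives of the methods. Directions of the other called genes were not compared. The number of calls moved, and the balance turned from more higher genes in TPM to more lower ones after median-centring and with ERCC. For genes with a higher response (558), the count was 330 after median-centring, 138 with ERCC scaling, 148 with edgeR and ERCC, 142 with DESeq2 and ERCC, and 2995 with no fold minimum. For genes with a lower response (186), it was 378, 1703, 1967, 1935 and 1322 in that order, and edgeR with TMM gave 427 and DESeq2 with its own size factors 422. ERCC scaling moves all genes down by about the shift of the spike-in share, and the part of other differences between tools was not tested. Without the fold minimum, 295 higher and 1322 lower genes were called under all 3 scalings. When 1 library was left out, the counts were 509 to 663 higher and 174 to 215 lower, and 118 to 182 and 174 to 215 under all 3 scalings. The replicate block gave 558 and 186. Under all 3 scalings it gave 136 and 186, beside 135 and 186 in the main fit. Replicate numbers did not pair the samples (correlations of deviations between groups from −0.24 to 0.24). A pseudocount of 0.1, no filter, a filter of 5 TPM and a fit of the 8 libraries alone kept both counts within 1.5 times. Chosen after seeing the data were the scalings with each library left out and the genes kept in all of them. The 2 libraries a group, a knock-in line that the labels do not name and spike-in shares that differ between replicates limit what the counts show.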

Other observations

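Some called members of lists outside the pathways described had small differences. The survival genes Mcl1 (0.59) and Bbc3 (0.72) were called in TPM. Mcl1 was at 0.56, 0.42 and 0.53 without replicate 2 of WT at 16 h, replicate 2 of S983A CON and replicate 1 of S983A at 16 h, and Bbc3 was at 0.50 without replicate 1 of S983A CON. Arrdc3, an arrestin-like gene that responds to glucose, fell in WT from 12.9 and 12.1 to 4.39 and 4.70 TPM and did not pass in S983A (17.5 and 16.3 to 14.03 and 12.3 TPM), with a difference of 0.94 (SE 0.13, limma adjusted p 1.73e-06). Cyp4a8, a fatty acid hydroxylase, rose in S983A alone, from 9.28 and 8.66 to 21.8 and 28.3 TPM, beside 41.9 and 40.8 and then 48.1 and 51.9 TPM in WT (1.11, SE 0.12, limma adjusted p 6.16e-08).

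A few genes had a difference at 16 h of Ex-4 that was above the one at 8 h with the 8 h value lying further below 0. These were Plat (−3.03 at 8 h and −1.60 at 16 h), Nmu (−2.92 and −1.12) and Kdr (−2.25 and −0.37), with changes of 1.43, 1.80 and 1.87. Their S983A means at 16 h were 0.180, 0.0485 and 0.0565 TPM. The gene Slc7a2, an arginine transporter, had a difference of 0.28 with Ex-4 and 2.34 with FSK at 16 h, a gap of −2.06 (SE 0.14, limma adjusted p 3.67e-11). Along the chromosomes, the median difference of the response over a gene and its 25 neighbours on each side stayed between −0.29 and 0.27. The same median of S983A minus WT at CON reached −1.07 on chromosome 4 and 0.95 on chromosome 5. The levels of the 2 genotypes thus differed by region before treatment, and the source of this was not tested.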
